A study of Homo sapiens with 4 samples.

Results

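Mitotic human tumour parts are the human share of barcodes from xenografted PANC-1 tumours of nude mice, chosen by 5 genes of dividing cells. A human part holds the UMIs (unique molecular identifiers, each counting 1 captured transcript) of human genes in a barcode. It was needed because every deposited barcode also held UMIs of mouse genes, from the host. A human part was kept where it had 500 or more UMIs and 250 or more genes and where mitochondrial genes took no more than 25% of its UMIs, which left 1013 parts of 1056 deposited barcodes. A kept part was called mitotic where MKI67, TOP2A, CENPF, CCNB1 and CDK1 together made up at least 0.15% of its human UMIs. This rule took in 159 parts, 15.7% of those kept (exact Clopper-Pearson 95% interval 13.5% to 18.1%), and left 854 other parts for comparison.

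PANC-1, the transplanted line, derives from a human ductal carcinoma of the pancreas and grew in subcutaneous skin, and nude mice lack mature T cells while keeping macrophages, fibroblasts and other host cells. Tumours were labelled control, for which the series' design text names a carrier, or were treated with agrimoniin (an ellagitannin), with erlotinib (an inhibitor of the EGFR kinase) or with both, here called combination. Where the labels read erlotinib alone the design text reads cyranin, and the group is named here by its label. Each treatment had 1 library. Doses, treatment times, the age of the mice and the number of mice behind a library are not stated in the labels or the design text. Mitotic parts of the control, agrimoniin, erlotinib and combination libraries numbered 31, 51, 42 and 35, and their human UMIs summed to 437115, 719158, 652645 and 562984. No barcode sequence was shared between libraries. The labels' protocol names a droplet kit of 10x Genomics, but the barcodes are 27 bases long, which is not that kit's layout, so it is uncertain how cells were captured and barcodes chosen. A part need not be 1 cell, and doublets were not removed, since every barcode held 2 species.

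A cell that divides first copies its DNA in S phase and then, after G2, separates the copies in mitosis. Entry into mitosis is driven by cyclin B bound to CDK1, chromosomes are compacted by condensin and topoisomerase II, kinetochores join them to spindle microtubules, and the anaphase-promoting complex with CDC20 destroys cyclin B and securin so that sister chromatids part. Many of the genes that encode this machinery are transcribed late in the cycle, in G2 and M, and are held silent in resting cells. Of the genes in the rule, MKI67 encodes a protein that coats mitotic chromosomes and is the usual marker of proliferation, TOP2A encodes topoisomerase II alpha, CENPF a kinetochore protein, CCNB1 cyclin B1 and CDK1 its kinase. Their transcripts are already present in S phase and G2, so the word mitotic stands here for parts chosen by this rule and not for a measured stage.

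Late-cycle promoters are known for a pair of short elements, the cell cycle genes homology region, TTTGAA or TTTAAA, which the DREAM and MYB-MuvB complexes bind, and CCAAT boxes, which NF-Y binds. They are shown because the members' genes moved together. The 250 bases before the RefSeq transcription start (GRCh38.p14) are given for MKI67, CCNB1 and CDK1 (the downstream of its 2 listed starts) from the rule, for the kinase gene PLK1 outside it, and for CCNA2. Capitals mark TTTGAA or TTTAAA, and CCAAT, on either strand (TTCAAA and ATTGG are the same letters read on the other strand). In MKI67 the TTTGAA nearest the start shares 1 base with an ATTGG.
MKI67, chr10:128126424-128126673, minus strand: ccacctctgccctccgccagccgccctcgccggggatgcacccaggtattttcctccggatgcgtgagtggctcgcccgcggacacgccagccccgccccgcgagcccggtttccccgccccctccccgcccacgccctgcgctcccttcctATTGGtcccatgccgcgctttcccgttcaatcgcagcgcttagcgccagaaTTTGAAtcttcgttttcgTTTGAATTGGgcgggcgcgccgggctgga
CCNB1, chr5:69166900-69167149, plus strand: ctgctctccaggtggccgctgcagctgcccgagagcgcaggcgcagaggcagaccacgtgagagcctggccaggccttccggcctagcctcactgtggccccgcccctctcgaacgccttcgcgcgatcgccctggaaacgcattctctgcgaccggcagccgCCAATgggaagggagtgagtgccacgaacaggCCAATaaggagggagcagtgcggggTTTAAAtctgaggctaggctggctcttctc
CDK1, chr10:60778228-60778477, plus strand: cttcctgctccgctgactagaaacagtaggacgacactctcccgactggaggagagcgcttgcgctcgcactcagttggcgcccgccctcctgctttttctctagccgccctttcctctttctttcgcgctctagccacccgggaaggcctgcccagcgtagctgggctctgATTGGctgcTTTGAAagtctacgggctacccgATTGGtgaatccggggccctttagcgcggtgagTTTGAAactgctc
PLK1, chr16:23678639-23678888, plus strand: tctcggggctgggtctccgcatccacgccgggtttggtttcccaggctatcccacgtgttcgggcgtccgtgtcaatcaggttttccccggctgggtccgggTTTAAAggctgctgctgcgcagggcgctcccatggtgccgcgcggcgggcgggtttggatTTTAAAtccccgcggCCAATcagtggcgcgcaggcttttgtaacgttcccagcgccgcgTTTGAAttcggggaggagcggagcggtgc
CCNA2, chr4:121823884-121824133, minus strand: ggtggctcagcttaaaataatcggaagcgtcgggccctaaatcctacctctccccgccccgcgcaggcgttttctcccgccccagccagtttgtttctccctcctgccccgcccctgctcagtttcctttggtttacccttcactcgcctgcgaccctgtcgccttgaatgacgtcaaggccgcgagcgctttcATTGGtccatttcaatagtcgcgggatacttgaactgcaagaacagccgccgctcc
The CCNB1 window held CCAAT at 87 and 55 bases and TTTAAA at 30 bases before the start. PLK1 held TTTGAA at 29 bases before its start, and MKI67 held one at the same distance. In CCNA2 none of the TTTGAA or TTTAAA letters was found in this window. Only exact letters were searched, so near variants, such as the cttgaa in the CCNA2 window, were not counted. In windows of 300 bases (250 before and 50 after the start), both kinds of element occurred in all 6 promoters of the 5 rule genes. They occurred together in 43.3% of 127 promoters of the tested cell-division genes described below, of which 98 of 119 had an entry in the RefSeq table. The share was 9.27% over all 35116 promoters of the table, 6.77% over those of the genes tested and 10.5% over those of the S phase genes. These matches describe letters, and no binding was measured.

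The rule genes themselves chose the members, so their values are a description. In counts per 1000000 human UMIs (CPM), MKI67 stood at 508, 563, 624 and 520 in the mitotic parts of control, agrimoniin, erlotinib and combination, and at 54.5, 38.7, 63.7 and 59.3 in the other parts. CCNB1 stood at 265, 342, 257 and 256 against 25.2, 31.6, 31.1 and 28.3 CPM. CDK1, the lowest of the 5, stood at 114, 175, 208 and 165 against 15.6, 19.2, 32.7 and 27.1 CPM. The mitotic parts, 15.7% of the parts, held 65.3% of all UMIs of the 5 genes. The summed percentage ran from 0.151% to 1.06% in mitotic parts, with a median of 0.252%, and the highest value outside was 0.149%. There was no gap at the threshold: 28 parts lay within 1.2 times the threshold above it and 40 from 0.12% to 0.15%. The rule counts behind a member ran from 12 to 123 UMIs, with a median of 38.

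Members differed in which of the 5 genes they carried. All 5 were detected in 90 parts, 4 in 50, 3 in 15 and 2 in 4. CENPF was seen in all 159, MKI67 in 157, TOP2A in 144, CCNB1 in 133 and CDK1 in 110. Among the other parts, at a lower median depth (11614.5 human UMIs against 13982), CENPF was seen in 59.4%, MKI67 in 27.5% and CDK1 in 17.1%, and 245 of 854 had no UMI of any of the 5. Each gene could be measured in members chosen by the remaining 4 at the same threshold. Chosen without TOP2A (128 parts), TOP2A was 8.81-fold higher than in the other parts, and chosen without MKI67 (119 parts), MKI67 was 7.20-fold higher. CCNB1 was 8.36-fold, CDK1 6.58-fold and CENPF 5.11-fold higher in members chosen without them (144, 150 and 81 parts). All 5 differences were in the same direction in all 4 libraries, with adjusted p no higher than 5.06e-14 in edgeR's quasi-likelihood test. The 5 were picked together as genes of dividing cells and counted in the same barcodes. These differences are therefore no independent support for the rule.

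**Figure D1:**
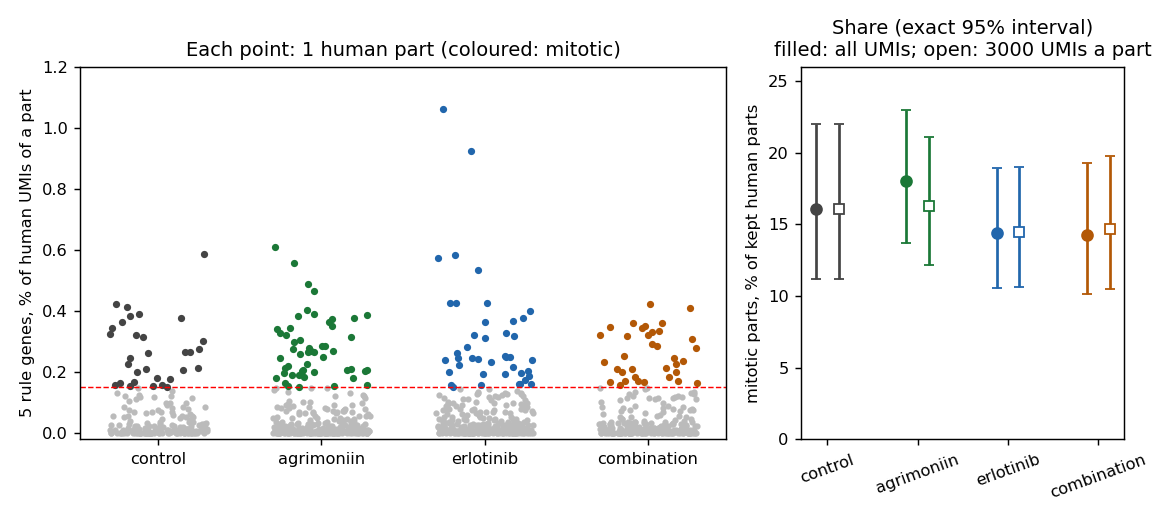
Left, the 5 rule genes as a percentage of the human UMIs of each part, by library, with the threshold of 0.15% as a dashed line (coloured, mitotic; grey, other parts). Right, the mitotic share of kept human parts with exact 95% intervals, from all UMIs (filled) and after thinning each part to 3000 UMIs (open); the intervals of the 4 libraries overlap, and the erlotinib library holds the highest single part at 1.06%.

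In control 31 of 193 parts were mitotic, a share of 16.1% (exact 95% interval 11.2% to 22%). Agrimoniin had 18.0% (51 of 283, 13.7% to 23.0%). Erlotinib had 14.4% (42 of 292, 10.6% to 18.9%), and combination 14.3% (35 of 245, 10.2% to 19.3%). Each interval held the share of every other library, so no difference in share between treatments was detectable at this number of parts. With every part thinned to 3000 UMIs the shares were 16.1%, 16.3%, 14.4% and 14.7%, and 1 erlotinib part was too shallow to enter. With a threshold of 0.30% they were 6.22%, 6.36%, 5.48% and 5.31%. The intervals cover counting error only, and with 1 library per treatment there was no test.

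Mitotic parts held more human RNA than the other parts in each library. Median human UMIs of control, agrimoniin, erlotinib and combination were 13074, 13551, 15182.5 and 14228 in mitotic parts and 11242, 12517, 11382.5 and 11519 in the others. The log2 ratio of medians averaged 0.26 ± 0.13 (SD over 4 libraries, higher in 4 of 4), with p = 0.125 in an exact two-sided sign-flip permutation test, the smallest this design can give. The mouse share of a barcode's UMIs was lower by 3.06 ± 2.84 percentage points (SD over 4 libraries, lower in 3 of 4; exact sign-flip permutation p = 0.25). Median mouse UMIs were 4279, 3896, 3799.5 and 2752 beside mitotic parts, against 4876.5, 3755.5, 3932 and 2991.5 beside the others. More human UMIs by themselves lower the mouse share, so it is no separate measure of host RNA. Mitochondrial UMIs took a median of 9.79% in mitotic parts and 9.44% in the others. Depth therefore moved with the class, and its part in the gene results was not tested beyond the thinned values given in the closing section.

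The comparison of mitotic with other human parts asked which other genes went with the 5. It was made on UMI sums per class and library (8 sums, library as a block), with edgeR's quasi-likelihood test, Benjamini-Hochberg adjustment over all 9277 human genes tested and a call at an adjusted p of at most 0.05. The library is the unit, and as each library had another treatment, the spread between libraries holds treatment differences as well. Of the genes tested, 760 were higher (8.19%) and 597 lower (6.44%) in mitotic parts. Without the agrimoniin library, which had the most mitotic parts, 495 were higher and 325 lower, and without the control library 397 were lower. All 9277 genes were counted in the barcodes that the rule had picked, so genes that move with the 5 are no independent support for the choice.

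The machinery of division rose nearly as a whole. Of 119 tested cell-division genes outside the rule, 110 were higher and none lower (8.19% and 6.44% over all genes), with a median log2 difference of 2.00 against -0.01 over all genes. Among kinases and cyclins of mitotic entry, 19 of 20 were higher, with a median log2 difference of 2.43. PLK1, the polo-like kinase needed for centrosome maturation and spindle assembly, stood at 130, 120, 133 and 140 CPM in the mitotic parts of control, agrimoniin, erlotinib and combination, and at 6.55, 7.40, 11.2 and 9.42 CPM in the others. Every mitotic sum lay above every other-part sum, at 15.1-fold (log2 3.92 ± 0.18 SE, adjusted p = 1.11e-16). It was seen in 103 of 159 mitotic parts and in 77 of 854 others. CCNA2, encoding the S phase and G2 cyclin A2, was 10.3-fold higher, at 121 to 144 CPM against 11.4 to 18.1. NEK2, a kinase that separates centrosomes, was 9.55-fold and BUB1, a kinase of the spindle checkpoint, 8.25-fold higher. The member of the list that was not called was CDC25B, named after its values were seen, an activating phosphatase of CDK1, at 34.3, 29.2, 56.7 and 58.6 CPM against 40.8, 37.7, 55.1 and 38.1.

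All 24 tested kinetochore and spindle checkpoint genes were higher, with a median log2 difference of 1.91. NDC80, which binds kinetochores to microtubules, stood at 126, 113, 101 and 87.0 CPM in mitotic parts against 16.1, 10.1, 13.8 and 8.64, a 9.02-fold difference (log2 3.17 ± 0.18 SE, adjusted p = 1.12e-14). CENPA, the histone H3 variant that marks centromeres, was 8.95-fold higher. CDCA8, which encodes borealin of the chromosomal passenger complex, was 7.24-fold and the kinetochore motor CENPE 7.01-fold higher. Groups did not overlap for any of these genes.

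Of 29 spindle motor and microtubule genes, 28 were higher, with a median log2 difference of 2.43. KIF20A, a kinesin of the central spindle needed for cytokinesis, was the highest by fold of this list, at 82.4, 136, 118 and 105 CPM against 5.55, 5.05, 11.8 and 6.68 (15.5-fold, log2 3.95 ± 0.21 SE, adjusted p = 2.18e-15). It was detected in 65.4% of mitotic and 7.38% of other parts. DLGAP5, which stabilises kinetochore fibres, was 11.4-fold higher, ASPM, a spindle pole protein, 9.37-fold, and HMMR, which binds microtubules and hyaluronan, 9.32-fold. The kinesin genes KIF2C, KIF4A and KIF14 were 8.24-fold, 8.22-fold and 8.18-fold higher. ASPM was lowest in the mitotic parts of combination, at 172 CPM against 256 to 345 in the other libraries.

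Chromosome structure genes rose less. Of 22 condensin, cohesin and chromatin genes, 20 were higher, with a median log2 difference of 1.15, and the cohesin genes STAG1 and STAG2 were not called. The condensin I genes NCAPG and NCAPH were 6.59-fold and 5.95-fold higher, and PTTG1, which encodes securin, 5.60-fold. HMGB2, an abundant chromatin protein of dividing cells, stood at 515, 609, 522 and 643 CPM against 133, 102, 111 and 143, and was seen in 158 of 159 mitotic parts and 447 of 854 others (4.83-fold, log2 2.27 ± 0.10 SE, adjusted p = 1.96e-17). It was the most widely detected of the called division genes described here.

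Of 24 genes of mitotic exit and cytokinesis, 19 were higher, with a median log2 difference of 2.05. The 5 not called (CDC16, CDC23, ANAPC4, ANAPC5 and ANAPC11, named after their values were seen) encode core subunits of the anaphase-promoting complex, while CDC20, its activator, was 6.78-fold higher, at 121, 170, 139 and 121 CPM against 14.6, 25.9, 27.5 and 14.5. CDCA3, a trigger of mitotic entry, was 15.5-fold higher from a low level, at 59.5 to 78.1 CPM against 3.03 to 7.46. GTSE1, which binds microtubules and restrains p53, was 8.92-fold, DEPDC1 8.82-fold and TROAP, a spindle protein, 8.20-fold higher. In each of these genes the lowest mitotic sum lay above the highest other sum.

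**Figure D2:**
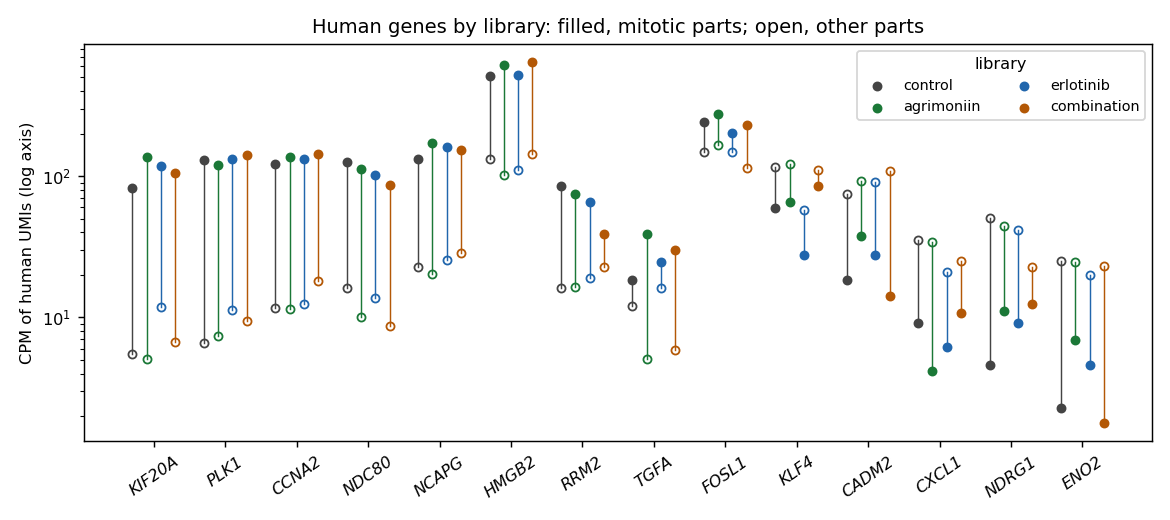
CPM of human UMIs on a log axis for 14 named genes in each library, with mitotic parts filled and other parts open, joined by a line. From KIF20A to FOSL1 all 4 libraries were higher in mitotic parts, and from KLF4 to ENO2 all 4 were lower; PLK1 ran from 120 to 140 CPM in mitotic parts and from 6.55 to 11.2 in the others.

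S phase genes rose in part. Of 53 tested, 36 were higher and none lower, with a median log2 difference of 0.74, below that of each division list. RRM2, the regulated subunit of ribonucleotide reductase, was 3.58-fold higher, at 84.6, 75.1, 65.9 and 39.1 CPM against 16.1, 16.5, 18.9 and 22.8. TK1, thymidine kinase, was 3.46-fold and ORC6, a subunit of the origin recognition complex, 3.03-fold higher. Among the 17 not called were MCM2 and MCM5, subunits of the replicative helicase, named after their values were seen, with MCM2 at 32.0, 20.9, 23.0 and 23.1 CPM against 11.1, 20.5, 18.9 and 18.5. With the rule set at 0.30% the S phase count fell to 10, and with CENPF left out of the rule to 14.

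Members with high S phase shares tended to have low late-mitosis shares. The S phase genes took a median of 0.319% of a mitotic part's UMIs (lowest 0.0847%, highest 1.04%) against 0.141% in the others, and 156 of 159 members lay above that second value. A late-mitosis sum of 10 genes (PLK1, CDC20, CCNB2, UBE2C, BIRC5, CENPA, CENPE, AURKA, TPX2 and KIF20A, chosen after the data were seen) took a median of 0.237% against 0.0169%. Many such genes are transcribed in G2 as well as in M, so the name late-mitosis is a label and not a measured stage. Over the 159 members the Spearman correlation of both sums was -0.39, and within the control, agrimoniin, erlotinib and combination libraries it was -0.21, -0.25, -0.66 and -0.51. The points share libraries and both sums are shares of the same total, so this is a description. All members had also passed a cut on genes transcribed from S phase to M, which can itself shape this correlation. In 36 members the S phase share exceeded the 90th percentile of the other parts, 0.446%. Among pairs of the rule genes, TOP2A with CDK1 had the highest Spearman correlation over members, 0.40, and MKI67 with CDK1 the lowest, -0.11. Members were chosen by the sum of these genes, which itself shapes such correlations, so both values only describe the members.

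**Figure D3:**
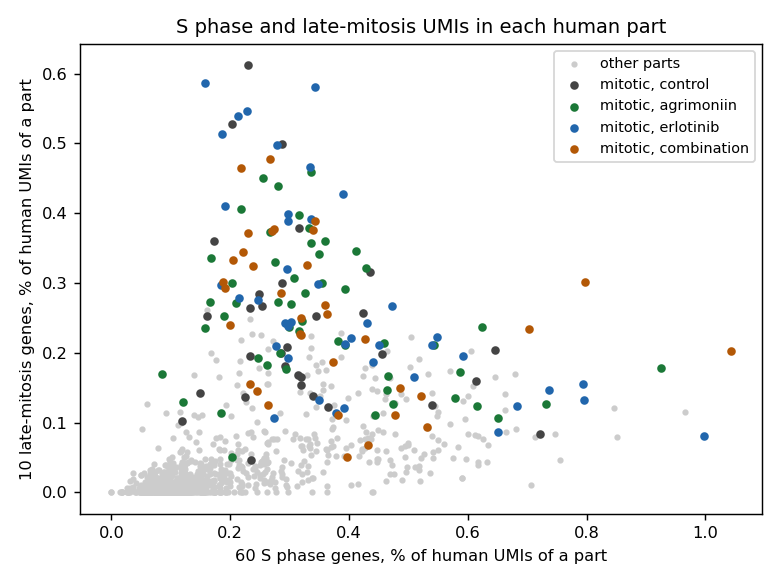
Each point is 1 human part, with the share of its human UMIs in 60 S phase genes on the x axis and in 10 late-mitosis genes on the y axis (grey, other parts; coloured, mitotic parts by library). Mitotic parts with high late-mitosis shares, up to 0.612%, tended to lie at low S phase shares, least so in control. Those with S phase shares up to 1.04% tended to lie lower on the y axis.

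Genes that hold the cycle back or start it moved in both directions. Counts in this and the following lists stand against 8.19% higher and 6.44% lower over all genes, and a count of 1 gene is not a result about its list. Of 21 brakes and G1 cyclins, 3 were higher and 5 lower, with a median log2 difference of 0.16. CDKN2C, an inhibitor of CDK4 and CDK6, was 2.77-fold higher, at 75.5, 98.7, 69.0 and 79.9 CPM against 26.2, 24.6, 36.8 and 31.8. BTG2, an antiproliferative gene induced by p53, was 2.75-fold lower, at 16, 8.34, 3.06 and 3.55 CPM against 19.7, 16.2, 27.9 and 18.1 (adjusted p = 0.00641), and was not called without the erlotinib library (adjusted p = 0.111). Without erlotinib 3 brakes were lower. The remaining 13 were not called.

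Hypoxia genes were lower in mitotic parts. Of 19 tested, 11 were lower (6.44% over all genes) and none higher, all 19 had a log2 difference below 0, and the median was -0.60. NDRG1, a stress gene induced by hypoxia, stood at 4.58, 11.1, 9.19 and 12.4 CPM against 50.4, 44.4, 41.6 and 22.8 (3.94-fold lower, log2 -1.98 ± 0.29 SE, adjusted p = 8.29e-06). Mitotic and other sums did not overlap. ANGPTL4, a secreted lipase inhibitor, was 2.05-fold lower, at 13.7, 25, 21.5 and 46.2 CPM against 78.2, 63.9, 58.0 and 33.4, with combination the library in which it was not lower, and without control it was not called (adjusted p = 0.0909). Summed over 22 hypoxia genes, a mitotic part held a median of 0.111%, 0.118%, 0.124% and 0.129% of its UMIs in control, agrimoniin, erlotinib and combination, against 0.207%, 0.206%, 0.18% and 0.191% in the others.

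Of 21 glycolysis genes 9 were lower and none higher, with a median log2 difference of -0.25. ENO2, an enolase, stood at 2.29, 6.95, 4.60 and 1.78 CPM against 25.2, 24.6, 19.9 and 23.2, 5.30-fold lower (adjusted p = 2.34e-05) and without overlap. SLC2A3, a glucose transporter, was 2.58-fold lower on 17 UMIs in 8 mitotic parts, and was not called without control (adjusted p = 0.0549). Summed glycolysis genes took a median of 0.544% of UMIs in mitotic parts and 0.545% in the others. Without control, 5 glycolysis genes were lower. Of 38 oxidative phosphorylation genes, 1, COX8A, was higher (1.30-fold, adjusted p = 0.0241), and it was not called without control, agrimoniin or combination.

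**Figure D4:**
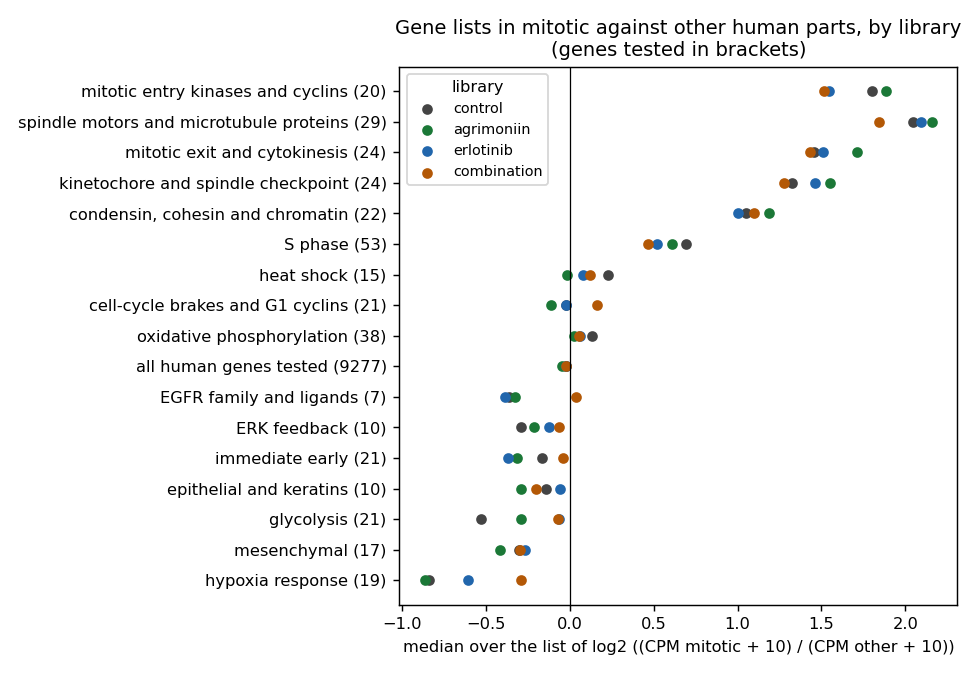
Median over each gene list of the log2 ratio of CPM in mitotic to other human parts (10 CPM added to both), with 1 point per library and the number of genes tested in brackets. The 5 division lists lie above 1 in all 4 libraries, the S phase list between 0.47 and 0.69, and the hypoxia list below 0, with combination nearest to 0 at -0.29.

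Among the 15 named genes at the lower end was TIMP3, an inhibitor of metalloproteinases, with 4 UMIs in 3 of 159 mitotic parts and 330 in 53 of 854 others, at 6.86, 0, 1.53 and 0 CPM against 10.6, 17.2, 36.5 and 56.5 (log2 -4.06 ± 0.53 SE, adjusted p = 1.04e-06, a fit that depends on how counts of 0 are treated). Its log2 difference was -5.88 without control and -3.24 without combination. IGFBP5, which binds insulin-like growth factors, was 8.53-fold lower on 12 UMIs, 50% of them from 1 part, with a log2 difference of -3.09 with all libraries and -2.40 without control. The chemokine gene CCL2 was 4.94-fold lower, at 4.58, 2.78, 13.8 and 19.5 CPM against 37.3, 68.7, 49.6 and 45.9. CXCL2 and CXCL1 were 4.14-fold and 3.83-fold lower, and STC1, a secreted glycoprotein hormone, 4.27-fold. STC1 stood at 9.15, 8.34, 10.7 and 71.0 CPM against 101, 80.1, 125 and 108, and its log2 difference of -2.09 was -3.38 without combination. In CXCL1 no mitotic sum reached any other sum. The mouse genes of the same names, read in the same barcodes, were not called: mouse Ccl2 had a log2 difference of 0.46 (adjusted p = 0.837), Cxcl1 of 0.45 (adjusted p = 0.838) and Timp3 of -0.20.

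Other genes at the lower end were CADM2, an adhesion molecule (18.3, 37.5, 27.6 and 14.2 CPM against 75.1, 92.5, 91.6 and 109, 3.56-fold lower), the chromatin gene ARID5B (3.49-fold), the RNA gene MIR193BHG (3.47-fold), SCG2, a granin (3.39-fold), FSTL5 (3.17-fold), TENT5A (2.94-fold) and PID1 (2.79-fold). CADM2 was detected in 19.5% of mitotic and 32.2% of other parts. THBS1, which encodes the matrix protein thrombospondin 1, was 2.86-fold lower, at 18.3, 20.9, 41.4 and 65.7 CPM against 137, 147, 73.3 and 86.4. Among 17 mesenchymal genes 5 were lower, THBS1 among them, and 2 higher, VIM and LGALS1. SPARC, also lower in the fit (2.22-fold, adjusted p = 0.0107) but higher in control, at 50.3 against 42.9 CPM, drew 48.8% of its mitotic UMIs from 1 part and was not called without agrimoniin (adjusted p = 0.161). Without control its log2 difference went from -1.15 to -1.94.

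Growth factor signalling genes were mixed. Among 7 tested genes of the EGFR family and its ligands, 1 was higher and 3 lower. The ligand gene TGFA was 3.12-fold higher, at 18.3, 38.9, 24.5 and 30.2 CPM against 12.1, 5.05, 16 and 5.89 (log2 1.64 ± 0.32 SE, adjusted p = 0.000465), on 69 UMIs in 27 mitotic parts. AREG, another ligand, was 2.74-fold lower on 12 UMIs in 5 parts, and was not called without control or without agrimoniin (adjusted p = 0.158 and 0.237). EGFR itself, named after its values were seen, was not called, at 135, 131, 208 and 163 CPM against 176, 167, 179 and 159 (log2 -0.07 ± 0.11 SE, adjusted p = 0.767).

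Of 10 ERK feedback genes, 1 was higher and 1 lower, which is near the share over all genes (8.19% and 6.44%). FOSL1, a FOS-family factor that ERK stabilises, stood at 242, 274, 202 and 231 CPM against 148, 165, 148 and 114 (1.69-fold higher, adjusted p = 2.30e-06), without overlap. DUSP6, the phosphatase that dampens ERK, was 1.28-fold lower (adjusted p = 0.0223), and was not called without control, agrimoniin or combination. Of 21 immediate early genes 8 were lower and none higher. The matricellular gene CCN2 was 2.53-fold lower, at 32.0, 171, 62.8 and 85.3 CPM against 179, 313, 170 and 245, and KLF4 1.69-fold lower. Without control, 5 immediate early genes were lower.

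Of 15 heat shock genes, 3 were higher and 1 lower, the latter near the 6.44% over all genes. HSPD1, a mitochondrial chaperonin, was 1.25-fold higher (adjusted p = 0.00304), and HSPB1, a small heat shock protein, 1.40-fold lower, at 389, 256, 415 and 332 CPM against 537, 463, 516 and 447. Without agrimoniin 5 heat shock genes were higher. Of 10 epithelial genes, 1 was higher and 3 lower. Without agrimoniin or without erlotinib 1 was lower, and without control or without combination 0 were higher. KRT8 was 2.20-fold lower, at 13.7, 9.73, 21.5 and 40.9 CPM against 41.8, 42.4, 51.9 and 51.0. Ribosomal protein genes, a list set up after the data were seen and given without support from it, had 32 of 78 lower and none higher, with a median log2 difference of -0.20.

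Markers of the line were checked in the mitotic parts. VIM stood at 6394 to 7545 CPM and KRT18 at 41.7 to 58.2, while KRT7 and KRT19, keratins of ductal cells, had 2 UMIs and 1 UMI in all 4 libraries together. Of 8 markers listed for the line, KRT7 and KRT19 lay below the 10 CPM needed for testing. Of the remaining 6, 2 were called higher and 3 lower in mitotic than in other parts. CDH2 stood at 48.0, 62.6, 78.1 and 63.9 CPM against 64.0, 106, 96.4 and 86.0 in control, agrimoniin, erlotinib and combination. It was not called without control, agrimoniin or combination. S100A6 stood at 796, 763, 665 and 611 CPM against 1013, 1024, 927 and 931. Of 12 human genes of immune, endothelial and stromal cells, CD3E, CSF1R, C1QA, CDH5 and PDGFRA were at 0 in the mitotic parts of every library, and the sum of the 12 ran from 51.4 to 208 CPM in mitotic and from 109 to 145 in other parts, the highest from COL3A1 in erlotinib.

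Mouse genes took no part in the rule, and the mouse parts of the same barcodes were compared in the same way. Of 8788 mouse genes tested, 2 were higher (0.0228%) and 11 lower (0.125%) beside mitotic human parts by edgeR's quasi-likelihood test. At an unadjusted p under 0.05 there were 407 genes (4.63%), and the DESeq2 Wald test called 0 higher and 1 lower. The lower genes were fat-cell genes (Adipoq, Car3, Cfd, Fabp4 and Scd1), mast-cell proteases and their kin (Cma1, Cpa3, Mcpt4, Tpsab1 and Tpsb2) and H19. They rested on few barcodes: Adipoq had 247 UMIs in 4 barcodes with other human parts, 59.1% of them from 1, and 0 beside mitotic parts, and Cma1 had 175 UMIs in 3 barcodes against 0. Fabp4 was the most spread, with 829 UMIs in 65 barcodes against 29 in 10 (log2 -2.41 ± 0.30 SE, adjusted p = 0.000581). The higher genes were the matrix gene Cilp, with 130 UMIs in 17 barcodes, and the protease gene Mmp3, which had 0 CPM against 17.4 in control and was higher in the other 3 libraries. Cilp had a log2 difference of 1.31, but of -8.87 (adjusted p = 2.75e-06) at a rule of 0.30%, -0.031 without TOP2A in the rule and -0.28 without CENPF. Without agrimoniin the mast-cell genes were not called (adjusted p = 0.999), and neither was Fabp4 (adjusted p = 0.182). Without agrimoniin 0 genes were higher and 2 lower, without control 11 were higher, without combination 5 and without erlotinib 0.

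No mouse gene of the macrophage, fibroblast, monocyte, endothelial, pericyte, neutrophil or innate lymphoid lists was called, and neither was a mouse mitosis or S phase gene. The sum of 34 mouse mitosis genes stood at 1091 CPM of mouse UMIs beside mitotic and 507 beside other human parts in control, and at 1764 against 791 in agrimoniin. In erlotinib it was 963 against 930 and in combination 869 against 996. The 5 mouse genes that match the rule genes by name summed to 352, 411, 276 and 353 CPM beside mitotic human parts in control, agrimoniin, erlotinib and combination, against 120, 238, 264 and 245 beside the others, higher in 4 of 4 libraries. The first sum was thus higher beside mitotic human parts in control and agrimoniin, slightly higher in erlotinib and lower in combination. The second was higher in all 4 libraries, though only slightly in erlotinib. The part of both sums in the human results was not tested. The sum of 10 macrophage genes ran from 6033 to 14420 CPM beside mitotic and from 9563 to 12596 beside other human parts, and that of 10 fibroblast genes from 22436 to 54203 and from 29941 to 35811.

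Within mitotic parts, each treated library was set against control, to ask whether the dividing cells carried other transcripts under treatment. With 1 library per treatment there is no test: folds carry exact 95% intervals for counting error, and the 3 comparisons share the control library. More than 1.5-fold higher were 7.91%, 10.0% and 10.2% of genes under agrimoniin, erlotinib and combination, and more than 1.5-fold lower 8.11%, 8.34% and 9.52% (log2 of CPM plus 10). Every part compared here had passed the same cut on the 5 rule genes, and the division genes moved with those 5. Their levels against control were thus partly set by the choice of parts, and cannot show whether treatment changed division. The sum of the division genes outside the rule was 1.08-fold control in agrimoniin (1.05 to 1.11), 1.07-fold in erlotinib (1.05 to 1.10) and 1.04-fold in combination (1.02 to 1.07). Of 124 such genes, 9, 10 and 6 were more than 1.5-fold higher in agrimoniin, erlotinib and combination, shares at or below those of all genes, and 0, 0 and 1 were lower. PLK1 stood at 120, 133 and 140 CPM against 130 in control, and CDC20 at 170, 139 and 121 against 121. CCNB2, the second B-type cyclin, stood at 70.9, 118 and 110 against 91.5.

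In mitotic parts, summed heat shock transcripts were lower than in control in every treated library, least so in erlotinib. HSPA6, a strictly inducible chaperone, had 75.5 CPM in control mitotic parts, against 15.3 under agrimoniin, 104 under erlotinib and 7.11 under the combination. It was 4.94-fold lower in agrimoniin (2.43 to 10.8) and 10.6-fold lower in combination (3.78 to 41.3), from 11 and 4 UMIs against 33, and 1 part gave 63.6% of the agrimoniin and 36.4% of the control UMIs. In the other parts the folds were 4.22 and 5.88. With the rule at 0.30% the agrimoniin ratio of HSPA6 had a log2 of 0.09. Of 15 heat shock genes, 7 in agrimoniin, 1 in erlotinib and 4 in combination were more than 1.5-fold lower and none higher. Over all genes 8.11%, 8.34% and 9.52% were lower by that measure, so the erlotinib count was near its share. The sum of the heat shock genes was 0.716-fold (0.696 to 0.737), 0.931-fold (0.906 to 0.957) and 0.737-fold (0.715 to 0.759) of control. In the other parts it was 0.856-fold, 1.04-fold and 0.806-fold, so lower in agrimoniin and combination and slightly higher in erlotinib. The control mitotic parts had a median heat shock share of 2.22%, above the 1.5% of the other control parts, while agrimoniin had 1.26% against 1.42%. ZFAND2A, also induced by heat shock, was 3.07-fold lower in agrimoniin and 4.51-fold lower in combination. In the other parts it was 1.33-fold and 2.93-fold lower.

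The hypoxia genes were higher in the combination. Of 18 measured, 9 were more than 1.5-fold higher than in control mitotic parts (10.2% over all genes) and none lower, and their sum was 1.63-fold (1.47 to 1.81), against 0.955-fold (0.920 to 0.991) in the other parts. In erlotinib the sum was 1.28-fold (1.15 to 1.43) in mitotic and 0.915-fold in other parts, with 3 of 18 genes higher and 1 lower, and in agrimoniin 1.05-fold (0.939 to 1.17) with 1 of 17 higher. Over all genes 10.0% were higher and 8.34% lower in erlotinib, and 7.91% higher in agrimoniin, so the counts of 1 were near those shares. Without the part richest in hypoxia genes in both libraries, the combination sum was 1.66-fold, and with parts thinned to 3000 UMIs it was 1.27-fold, and with the rule at 0.30% 2.44-fold. The medians per part were close, 0.111% in control and 0.129% in combination, and the upper quartiles were 0.147% and 0.224%. BNIP3, a mitophagy gene induced by hypoxia, was 3.23-fold higher in erlotinib (2.05 to 5.31), with 56.5% of its 23 control UMIs from 1 part. The glycolysis sum was 1.19-fold, 1.31-fold and 1.29-fold of control in agrimoniin, erlotinib and combination. In the other parts it was also higher, at 1.13-fold, 1.12-fold and 1.08-fold.

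**Figure D5:**
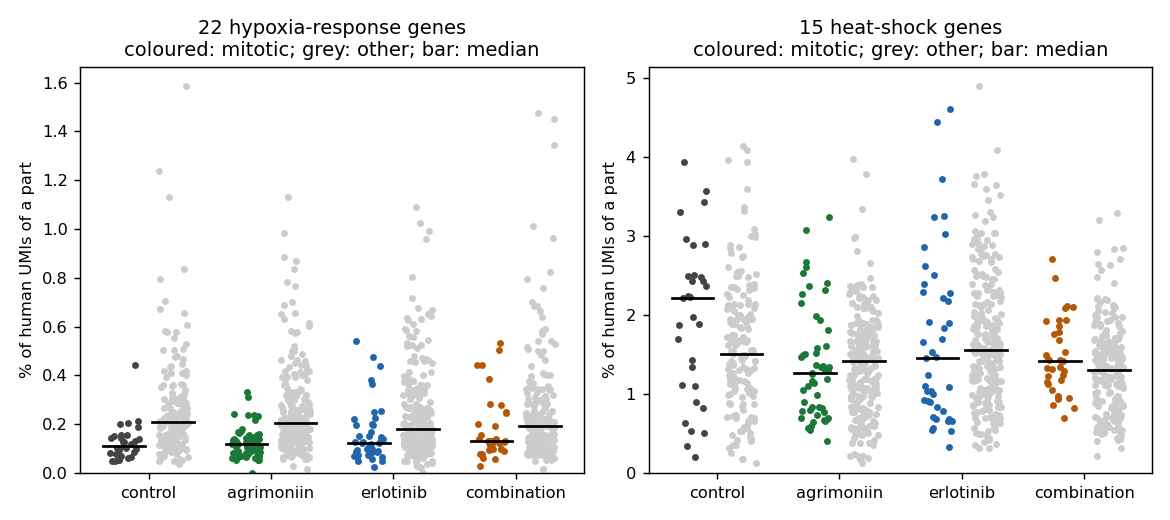
The share of each part's human UMIs in 22 hypoxia-response genes (left) and 15 heat shock genes (right), by library, with mitotic parts coloured, other parts grey and medians as bars. Mitotic medians of the hypoxia share lie below those of the other parts in all 4 libraries (0.111% against 0.207% in control), and the control mitotic parts have the highest heat shock median, 2.22%.

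DUSP6 levels took the same order over the 4 libraries in mitotic as in other parts. Control mitotic parts had 119 CPM, and agrimoniin, erlotinib and combination 284, 87.3 and 247, which is 2.38-fold (1.75 to 3.30), 0.734-fold (0.495 to 1.09) and 2.08-fold (1.5 to 2.91) of control. In the other parts the ratios were 1.73, 0.483 and 1.63, in the same order. IGFBP4, which also binds insulin-like growth factors, was among the 5 highest in all 3 comparisons, at 87.6, 96.5 and 83.5 CPM against 20.6, but its control value rested on 9 UMIs and 68.3% of its agrimoniin UMIs came from 1 part. With the rule at 0.30% its agrimoniin log2 ratio was -1.79.

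The remaining named genes were CCN2 (5.34-fold, 3.06 to 10.1), ULK1 and MRPS26 at the upper end in agrimoniin, and MEIS2, VTI1A, SYT1 and MFSD1 at the lower end. CCN2 rested on 14 control UMIs, 35.7% of them from 1 part, and was 1.75-fold higher in the other parts. In erlotinib COL3A1 (5.44-fold, 52.3% of its UMIs from 1 part), CRABP2 and VCAN were highest, and PRDM1, MTRNR2L12, MEIS2, NRG1 and CCNT2 lowest. PRDM1 had a log2 ratio of 0.41 after thinning to 3000 UMIs. NRG1, a ligand of the EGFR family, was 3.58-fold lower (2.09 to 6.37) in mitotic parts, with a ratio of 1.10 in the others. In combination H19, an imprinted RNA gene, was 6.46-fold higher (5.25 to 8.02), at 1492 CPM against 231, with 54.5% of the control UMIs from 1 part. In the other parts H19 was 1.39-fold higher. ID3, AK4 and NR2F1 were the others at the upper end in combination, and MTRNR2L12, ZCCHC14, SLC35F3 and PRKCA at the lower. Of the control UMIs, 1 part gave 57.1% of 14 for ID3 and 55.6% of 9 for AK4. MTRNR2L12 is nearly identical to the mitochondrial ribosomal RNA gene, so its counts are uncertain.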

How the data were processed

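Single-cell RNA was read from 4 libraries, 1 per treatment. The deposited values are raw UMI counts per gene and barcode. The submitters' processing notes list Cell Ranger, hg38 and mm10. How the authors chose barcodes, and the Cell Ranger version, are unknown here. The files held 36601 human and 32285 mouse genes.

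UMIs of each species were taken apart in every barcode, filtered as stated in the report, and summed per class and library. Genes averaging 10 CPM or more over all kept parts were tested with edgeR 4.0.16 (TMM, quasi-likelihood test, library as a block with 3 residual degrees of freedom, variances shared over genes) in R 4.3.3. The 5 rule genes stayed in the library sizes but were not tested, except each one in members chosen by the other 4. The test was checked on simulated data. DESeq2 1.42.0 was an alternative. The labels do not say whether libraries came from separate animals.

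The members, gene lists and tests were chosen with earlier results of these data known. Named genes are the 15 highest and 15 lowest called genes (same direction in 4 libraries, mean CPM of at least 20), the 4 most changed called genes of each division list and 2 of each other list, the 5 highest and 5 lowest called mouse genes, and per treated library the 5 highest and 5 lowest ratios at 50 CPM or more (mean of both libraries), with HSPA6, DUSP6, CDC20, CCNB2 and PLK1. S phase counts as a division list here. The other called mouse genes were named after their values were seen. Gene names are those of the files, 34616 of the human identifiers were found in GENCODE 29 (GRCh38), and promoter sequences come from RefSeq (GRCh38.p14). Counting by strand is not stated, so overlapping antisense genes cannot be told apart. Intervals cover counting error only, since free RNA and library differences are not in them.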

Additional observations from a re-analysis of the deposited data

Results flagged for a closer look

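Of 83 results with a value per library, 5 had 1 library far from the other 3, a distance that chance gives about 1 time in 20. SCG2 had a log2 ratio of mitotic to other parts of -3.06 in control, against -1.15 to -1.38 in the other libraries, on 1 UMI in control mitotic parts. TENT5A had -2.27 in control, against -0.89 to -1.03. KLF4 had -0.34 in combination, against -0.82 to -0.86. The EGFR family list had a median of 0.0335 in combination, against -0.33 to -0.39. The median over all human genes was -0.0488 in agrimoniin and -0.02 in the others.

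Of 30 folds against control compared between mitotic and other parts, 2 had intervals on opposite sides of 1, and the difference was not tested. In erlotinib PRDM1 was at 0.244-fold control (0.128 to 0.440) in mitotic parts and 1.24-fold (1.00 to 1.54) in the others. With parts thinned to 3000 UMIs its log2 ratio in mitotic parts was 0.41, in the direction of the other parts. VCAN was at 3.17-fold (2.21 to 4.65) in mitotic parts and 0.787-fold (0.691 to 0.897) in the others, with 22.3% of its erlotinib mitotic UMIs from 1 part.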

How the results depend on the processing

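Of the 60 human genes named for the mitotic contrast, none changed direction under any alternative, and 27 lost the call under at least 1 of them. The 15 highest and 15 lowest were chosen for the same direction in all 4 libraries, and the alternatives reuse those libraries. A change of direction was thus unlikely from the outset. The counts of human genes higher and lower were 307 and 198 with a threshold of 0.30%, 364 and 218 without CENPF in the rule, 396 and 215 in barcodes of at least 75% human UMIs, 257 and 168 with parts thinned to 3000 UMIs, and 390 and 203 by the DESeq2 Wald test. The lower count was 395 without MKI67 in the rule and 329 with a mitochondrial maximum of 10%. The cause was not tested, except that the thinned parts hold fewer UMIs. Leaving out 1 library gave 495 to 625 higher and 325 to 515 lower. Of the human genes called, BIRC3, named after its values were seen, was called in the opposite direction under 1 alternative: its log2 difference was 0.38 (adjusted p = 0.0446), and -0.63 (adjusted p = 0.0372) without CENPF in the rule.

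Mouse counts moved most. Genes higher and lower numbered 6 and 24 with a threshold of 0.30%, 1 and 6 without CENPF, 1 and 7 at 75% human UMIs, 21 and 25 without a filter on low genes, 0 and 1 by DESeq2, and 0 and 0 without the library block. Higher counts were 6 with a threshold of 0.10%, 0 without TOP2A, without CCNB1, without CDK1 or after thinning, and 8 with the mitochondrial maximum of 10%. The lower count was 6 against other parts under 0.05%. Leaving out 1 library gave 0 to 11 higher and 2 to 13 lower. Scd1 had a log2 difference of 0.14 at 75% human UMIs, and Cilp of -8.87 at 0.30%, -0.031 without TOP2A and -0.28 without CENPF.

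Shares in control, agrimoniin, erlotinib and combination were 6.22%, 6.36%, 5.48% and 5.31% at 0.30%, and 7.25%, 8.48%, 7.88% and 8.16% without CENPF. At 0.10% erlotinib had 22.6% and combination 22.4%, without MKI67 agrimoniin had 13.4%, and at 75% human UMIs erlotinib had 20.3%. The division sum against control was 1.05-fold in agrimoniin and 1.02-fold in combination at 0.30%, and 1.14-fold in erlotinib and 1.01-fold in combination after thinning. Reversed log2 ratios against control were IGFBP4 (-1.79) and HSPA6 (0.087) in agrimoniin and SLC35F3 (1.12) in combination at 0.30%, and PRDM1 (0.41) in erlotinib after thinning. The sums without the richest part were added after seeing the data. Several genes at the lower end rest on under 25 mitotic UMIs, which limits their precision.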
